A study of Mus musculus with 51 samples.

Results

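Mesenchymal patterning transcription factors tell embryonic connective tissue where in the body it lies and what it may become. The 9 genes described here were Tbx20, Tbx5 and Tbx15 of the T-box family, the homeobox genes Alx1 and Prrx1, the basic helix-loop-helix genes Twist1 and Twist2, the zinc finger gene Zic1 and the forkhead gene Foxd1. They were chosen by name, with earlier results of these data in view, and every probe set that the platform annotation gives to 1 of them alone was kept. That gave 9 of 18193 genes with a symbol and 20 of 45101 probe sets: 6 for Prrx1, 3 for Tbx20, 2 each for Alx1, Tbx5, Tbx15 and Zic1, and 1 each for Twist1, Twist2 and Foxd1.

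Embryonic fibroblasts keep a memory of their place of origin in the set of such factors that they express. Tbx5 marks the forelimb and heart, Tbx15 the limb and body-wall mesenchyme, and Tbx20 the heart. Alx1 acts in craniofacial mesenchyme, Prrx1 and the Twist genes act widely in limb and head mesenchyme, Zic1 acts in dorsal mesenchyme and the nervous system, and Foxd1 marks stromal progenitors such as those of the kidney. HMGN proteins, the subject of the study, bind nucleosomes without regard to DNA sequence and compete with linker histone for chromatin.

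RNA of 51 samples, 17 groups of 3, was hybridised to Affymetrix whole-genome mouse arrays. Primary mouse embryonic fibroblasts (MEFs, C57BL/6) formed 6 groups, HMGN1, HMGN3 and HMGN5 knock out cells and the WT cells that the labels pair with each. A line of MEFs transformed with SV40, from ATCC, formed 8 groups, carrying the empty vector, HMGN1, HMGN2, HMGN3a, HMGN5, HMGN5SE, HMGN1_N2swap or HMGN1_N3swap. MIN6 cells, a mouse line of insulin-producing beta cells, formed 3 groups, with the empty vector, HMGN1 or HMGN3a. Every SV40 and MIN6 group, controls included, was a pool of retrovirus-infected cells grown under puromycin and then without it for a day, not a clone, and the labels repeat this infection protocol for the primary cells too. The series text puts the gain in HMGN protein at double, in words, and the labels do not say what sets HMGN5SE or the swap constructs apart from the native proteins. The labels do not say that the 3 samples of a group came from separate cultures or embryos, so tests measure the spread between these samples. In 2 groups the share of Y-linked signal, on a scale from 0 to 1, differed widely between arrays. It was 0.7409, 0.0061 and 0.4134 in the HMGN1 knock out and 0.0103, 0.8846 and 0.3653 in the arrays labelled HMGN5 knock out. Those arrays did not share 1 RNA sample, and in the other groups the spread may be technical.

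Levels are log2 intensities of the brightest probe set of a gene, and differences are log2 differences with their standard error (SE). A gene was tested where its highest group mean reached the dim level, the 40th percentile of all group means in that cell type: 1.99 for primary MEFs, 3.63 for the SV40 line and 5.14 for MIN6. The 3 cell types were fitted apart with limma and have different intensity scales, so levels are not compared across them. "Called" means a Benjamini-Hochberg adjusted p below 0.05 over all genes tested. The contrasts with a control and those between WT groups took part in choosing the genes, and the direct contrasts of constructs reuse the same arrays, so calls for the 9 genes are a description.

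Of the 9 genes, 8 passed the dim level in primary MEFs (all but Tbx20) and 8 in SV40 MEFs (all but Zic1). In MIN6 cells 3 passed, Tbx5, Tbx15 and Twist2. Fibroblast markers bore out the cell labels: 12 of 12 lay above the dim level in every primary group and 9 or 10 of 12 in the SV40 groups, where Lum lay below it throughout. In MIN6 cells 4 of 12 did, with Col1a1, Col1a2, Col3a1 and Vim below, while all 7 measured beta cell markers lay above. Hmgn1 was lower in the HMGN1 knock out at 3 of its 4 probe sets (9.99 ± 0.09 against 10.87 ± 0.02, SD, n = 3, at 1 of them), the last being dim, and Hmgn3 in the HMGN3 knock out at both of its probe sets (4.54 against 6.00 and 6.25 against 7.54). The Hmgn5 probe set was higher in the arrays labelled HMGN5 knock out (5.69) than in their WT (4.97), so results of that contrast are given for the arrays labelled so. Hmgn5 was lower in the HMGN5 pool (7.62) than with the vector (8.55), and Hmgn1 was no higher in the HMGN1 pool than with the vector (11.89 in each, at the same probe set). Whether these probe sets read the introduced constructs was not tested. The pools of HMGN1_N2swap and HMGN1_N3swap stood apart in RNA quality: the Actb 3-prime minus 5-prime difference lay at 0.39 to 0.79 in their arrays and at 0.01 to 0.39 in the other SV40 arrays, and the main values for these pools are given with that difference as a covariate too. These ranges meet only at 0.39, so the covariate cannot tell construct and RNA quality apart. The HMGN2 arrays (0.0072 to 0.1958) also lay below the vector arrays (0.2334 to 0.2899) and the HMGN1 arrays (0.2044 to 0.3422). Construct and RNA quality cannot be told apart in the contrasts of HMGN2 with these 2 groups either, and covariate values are not given for them. For the gene lists that covariate was added after seeing the data.

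The bases before the start of 3 of the genes are shown because these genes carried the SV40 results below. Tbx20 fell below the dim level at its brightest probe set in the HMGN5 pool, Twist2 gained there, and Prrx1 differed among most pools. RefSeq's promoter table (GRCm38.p6) held 6 of the 9 genes, and the 250 bases before each start were read on the gene's own strand. Capitals mark the letters GGGCGG, the GC box bound by Sp1-like factors, or its reverse complement CCGCCC. Tbx20 is shown at chr9:24774304-24774553 (minus strand), Twist2 at chr1:91801211-91801460 (plus strand) and Prrx1 at chr1:163313651-163313900 (minus strand).
Tbx20: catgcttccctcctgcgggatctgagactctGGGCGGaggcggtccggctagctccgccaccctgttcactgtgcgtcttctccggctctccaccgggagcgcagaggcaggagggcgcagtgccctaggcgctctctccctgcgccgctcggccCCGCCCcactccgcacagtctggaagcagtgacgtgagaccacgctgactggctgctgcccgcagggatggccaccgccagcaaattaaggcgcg
Twist2: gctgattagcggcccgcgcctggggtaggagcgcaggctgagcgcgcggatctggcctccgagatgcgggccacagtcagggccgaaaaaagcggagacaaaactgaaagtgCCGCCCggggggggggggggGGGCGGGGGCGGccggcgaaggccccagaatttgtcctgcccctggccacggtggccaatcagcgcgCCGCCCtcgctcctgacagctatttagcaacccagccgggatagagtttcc
Prrx1: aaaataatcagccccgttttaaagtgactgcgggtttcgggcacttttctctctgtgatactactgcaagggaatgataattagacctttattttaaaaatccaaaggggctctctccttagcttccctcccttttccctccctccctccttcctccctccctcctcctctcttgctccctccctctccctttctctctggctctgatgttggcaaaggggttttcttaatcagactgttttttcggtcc

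The windows of Tbx20 and Twist2 were alike in composition, and that of Prrx1 differed from both. GC content was 68.8% for Tbx20, 68.8% for Twist2 and 47.6% for Prrx1, against a median of 52.4% over the 32851 windows of the table. The CG dinucleotide occurred 22 times before Tbx20, 23 times before Twist2 and 4 times before Prrx1, with a median of 6. The GC box occurred 2 times before Tbx20, 4 times before Twist2, where 2 of the matches lie side by side, and 0 times before Prrx1. Of all windows, 32.7% held at least 1. The E-box letters CANNTG, which basic helix-loop-helix proteins such as Twist bind, were in none of the 3 windows and in 66.2% of all windows. The CCAAT letters (either strand, as for each motif) were found once before Twist2 and not before the other two, against 33.8% of all windows. TATAAA was in none of the 3 and in 12.4% of all. A match describes these letters only. Of the other listed genes, Twist1, Zic1 and Foxd1 held 18, 27 and 12 CG dinucleotides in their windows.

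Tbx20, a T-box gene of the heart, fell below the dim level in the HMGN5 pool at its brightest probe set. With the empty vector its level was 7.48, 7.56 and 7.63, and in the HMGN5 pool 2.03, 2.41 and 2.52, all below the dim level. Tbx20 therefore fell by at least 3.92, or at least 15.2-fold (fitted difference -5.23 ± 0.10). No HMGN5 array came near any of the other 21 SV40 arrays, which lay between 7.16 and 8.11. The other probe sets of Tbx20 were also called lower, by at least 1.74 at 1425158_at (fitted -2.38 ± 0.17) and by 1.01 ± 0.16 at 1422219_a_at (-1.01). At 1422219_a_at every SV40 group mean stayed above the dim level, the lowest at 3.74. In these bulk samples, fewer cells with Tbx20 and less Tbx20 RNA per cell cannot be told apart. In the HMGN5SE pool the level was 7.54, 7.65 and 7.77, overlapping the vector arrays, and in the direct contrast Tbx20 was at least 4.02 higher than with HMGN5. HMGN2 gave 7.98, 8.07 and 8.11, above every vector array (+0.50 ± 0.10, called), and the other probe sets rose by 0.67 ± 0.16 and 0.98 ± 0.17. The remaining groups overlapped or bordered the vector: HMGN1 7.56, HMGN3a 7.35, HMGN1_N2swap 7.67 and HMGN1_N3swap 7.75 on average, none called. At 1425158_at, HMGN1_N3swap was called lower (-0.44 ± 0.17) while the brightest probe set gave +0.19 ± 0.10, so its direction there is not settled.

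Tbx15 and Tbx5, the other T-box genes, moved little at their brightest probe sets. Tbx15 stood at 6.80, 6.91 and 6.96 with the vector, at 6.23, 6.56 and 6.57 with HMGN1_N2swap and at 6.35, 6.46 and 6.56 with HMGN1_N3swap. Both swap pools lay wholly below the vector arrays and were called (-0.44 ± 0.10 and -0.43 ± 0.10). The second probe set gave -0.62 ± 0.18 and -0.81 ± 0.18, both called. With the Actb difference as a covariate the differences at the brightest probe set were -0.66 and -0.64, still called. At that probe set Tbx15 was not called in the HMGN1, HMGN2, HMGN3a, HMGN5 or HMGN5SE pool, where group means ranged from 6.69 to 6.93. The second probe set spread more widely, with means from 4.18 to 5.32 over all SV40 groups, and its r with the brightest was 0.45. Its differences in these pools are not given here. Tbx5, whose group means ran from 3.95 to 4.18, close to the dim level, was not called in any of the 7 contrasts with the vector.

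Alx1, the craniofacial homeobox gene, also dropped below the dim level in the HMGN5 pool. Its level was 6.92, 6.98 and 7.02 with the vector and 2.70, 2.88 and 2.94 with HMGN5, again below the dim level in all 3 arrays. It fell by at least 3.34, or at least 10.1-fold (fitted -4.13 ± 0.10), and its second probe set by at least 1.75 (fitted -2.51 ± 0.10). In the HMGN5SE pool it was 6.69, 6.75 and 6.87, just below the vector arrays (-0.20 ± 0.10, not called), and at least 3.14 above the HMGN5 pool. A further 3 pools lay above the vector: HMGN2 at 7.49, 7.61 and 7.86 (+0.68 ± 0.10), HMGN1_N2swap at 7.49, 7.78 and 7.85 (+0.73 ± 0.10) and HMGN1_N3swap at 7.42, 7.69 and 7.73 (+0.64 ± 0.10), all called and overlapping one another. The second probe set rose with HMGN2 (+0.36 ± 0.10) but was not called with the swap constructs (+0.16 and +0.15, ± 0.10). With the Actb covariate the swap differences at the brighter probe set were 0.38 and 0.32, still called. HMGN1 and HMGN3a left Alx1 at 7.02 and 6.97 on average, beside 6.97 with the vector.

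Twist2, a basic helix-loop-helix repressor of mesenchymal differentiation, was highest in the HMGN5 pool. The vector arrays read 7.86, 7.91 and 7.95 and the HMGN5 arrays 10.06, 10.08 and 10.08, so that Twist2 rose 4.49-fold (+2.17 ± 0.06, called). All other SV40 arrays lay between 7.40 and 8.07. HMGN5SE read 7.90, 7.96 and 7.99, overlapping the vector, and was 2.12 ± 0.06 below HMGN5 in the direct contrast (called). HMGN2 was the one other pool in which Twist2 was called, lower at 7.40, 7.52 and 7.53 (-0.42 ± 0.06), with no overlap with the vector. The remaining pools, from 7.77 (HMGN1_N3swap) to 8.02 (HMGN3a), were not called. With the Actb covariate Twist2 was called lower in both swap pools too (-0.21 and -0.26).

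Twist1, the paralogue of Twist2, moved far less. It read 7.40, 7.46 and 7.65 with the vector and 7.64, 7.72 and 7.73 with HMGN5 (+0.19 ± 0.07, called, though the lowest HMGN5 array and the highest vector array nearly coincided). It read 7.27, 7.27 and 7.34 with HMGN1 (-0.21 ± 0.07, called, no overlap). Both calls rest on single arrays: the HMGN5 call was lost without vector replicate 1 or 3 or HMGN5 replicate 1 or 3 (+0.14 to +0.18), and the HMGN1 call without vector replicate 2 (-0.14) or HMGN1 replicate 1 or 3 (-0.20). The order of the other group means, 7.32 (HMGN3a), 7.37 (HMGN5SE), 7.46 (HMGN1_N2swap), 7.47 (HMGN2) and 7.50 (HMGN1_N3swap), had no step beyond the spread of the arrays.

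Prrx1, a homeobox gene of limb and head mesenchyme, separated the most pools. Its lowest level was in the HMGN1 pool, at 6.14, 6.21 and 6.26. HMGN3a (6.66, 6.68 and 6.86), the vector (6.75, 6.76 and 6.80) and HMGN5SE (6.77, 6.87 and 6.96) followed and overlapped as neighbours. HMGN5 came next at 7.29, 7.40 and 7.43. HMGN1_N3swap (7.87, 8.07 and 8.12) and HMGN1_N2swap (7.97, 8.04 and 8.18) overlapped each other, and HMGN2 was highest at 8.20, 8.22 and 8.30. Against the vector Prrx1 fell with HMGN1 (-0.56 ± 0.08) and rose with HMGN5 (+0.61 ± 0.08), HMGN1_N3swap (+1.25 ± 0.08), HMGN1_N2swap (+1.30 ± 0.08) and HMGN2 (+1.47 ± 0.08, or 2.77-fold), all called. With the Actb covariate the swap differences were 1.16 and 1.19.

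The 5 probe sets of Prrx1 above the dim level differed in size from pool to pool. With HMGN2 they rose together, by 1.30 to 1.88, and with HMGN1 all 5 were lower, by -0.43 (not called) to -0.91. In the swap pools they split. With HMGN1_N2swap 1439774_at and 1425528_at rose by 1.62 ± 0.16 and 1.30 ± 0.08, 1425527_at by 0.65 ± 0.20, and 1432129_a_at and 1425526_a_at gave 0.41 ± 0.16 and 0.32 ± 0.19, neither called. HMGN1_N3swap gave 1.40, 1.25, 0.64, 0.53 and 0.22 in the same order, the last not called. Set directly against HMGN2, HMGN1_N2swap was lower at 3 of the 5 probe sets, 1425526_a_at (-0.98 ± 0.19), 1432129_a_at (-1.06 ± 0.16) and 1425527_at (-1.08 ± 0.20), all called over every probe set. The remaining pair gave -0.18 ± 0.08 and -0.26 ± 0.16, not called. With the Actb difference as a covariate, a fit added after these values were seen, none of the 5 was called and the differences were -0.30, -0.75, 0.04, -0.32 and -0.67. HMGN1_N2swap arrays (0.39 to 0.79) and HMGN2 arrays (0.01 to 0.20) do not overlap in that covariate, so construct and RNA quality cannot be told apart here. With HMGN5, 1 of the 5 was called, the brightest, and the other 4 gave 0.02 to 0.47. Which Prrx1 transcripts each probe set reads was not tested.

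**Figure D1:**
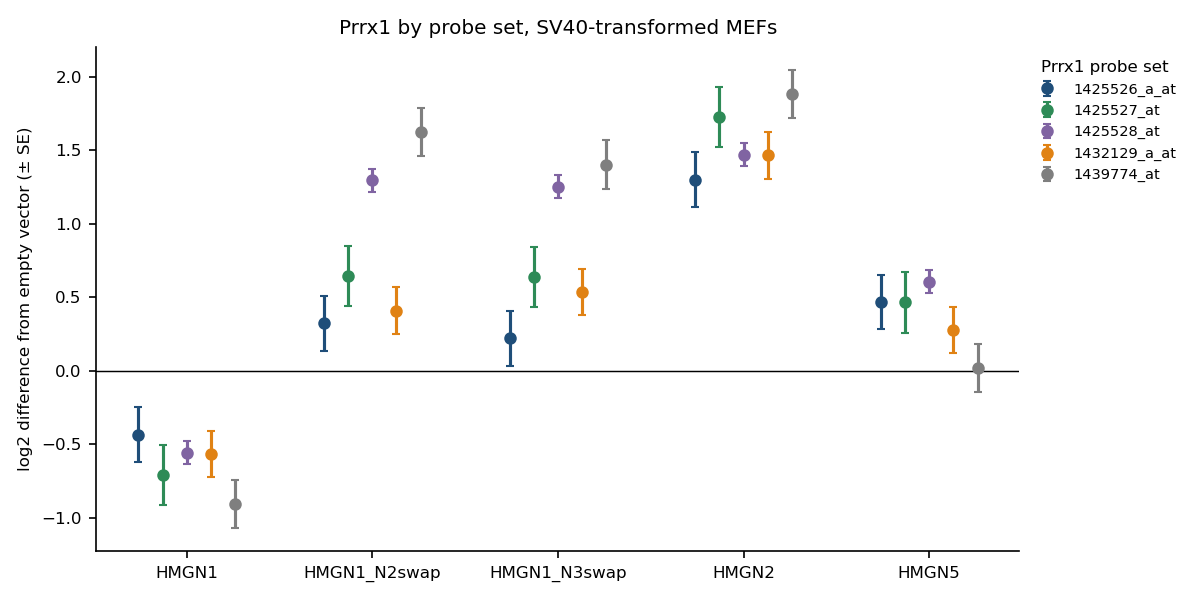
Difference in log2 intensity from the empty vector (y axis, with SE) at the 5 detectable Prrx1 probe sets (colours) in 5 pools of SV40 MEFs (x axis). The 5 probe sets lie together between 1.30 and 1.88 for HMGN2 and spread from 0.32 to 1.62 for HMGN1_N2swap.

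Foxd1, the stromal forkhead gene, was lower than with the vector in 4 pools. It read 8.47, 8.54 and 8.74 with the vector, and fell with HMGN1_N2swap (7.80, 7.86 and 8.02, -0.69 ± 0.08), HMGN1_N3swap (7.81, 7.86 and 8.06, -0.67 ± 0.08), HMGN2 (8.07, 8.11 and 8.11, -0.49 ± 0.08) and HMGN5 (8.21, 8.26 and 8.28, -0.33 ± 0.08). No array of these 4 pools reached the vector arrays. With HMGN1 it read 8.65, 8.75 and 8.78, overlapping the vector, and HMGN3a (8.57) and HMGN5SE (8.58) matched the vector mean of 8.58. The Actb covariate moved the swap differences to -0.79 and -0.77, still called. Zic1 stayed below the dim level in every SV40 group, with group means from 1.60 to 1.96 over both probe sets.

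**Figure D2:**
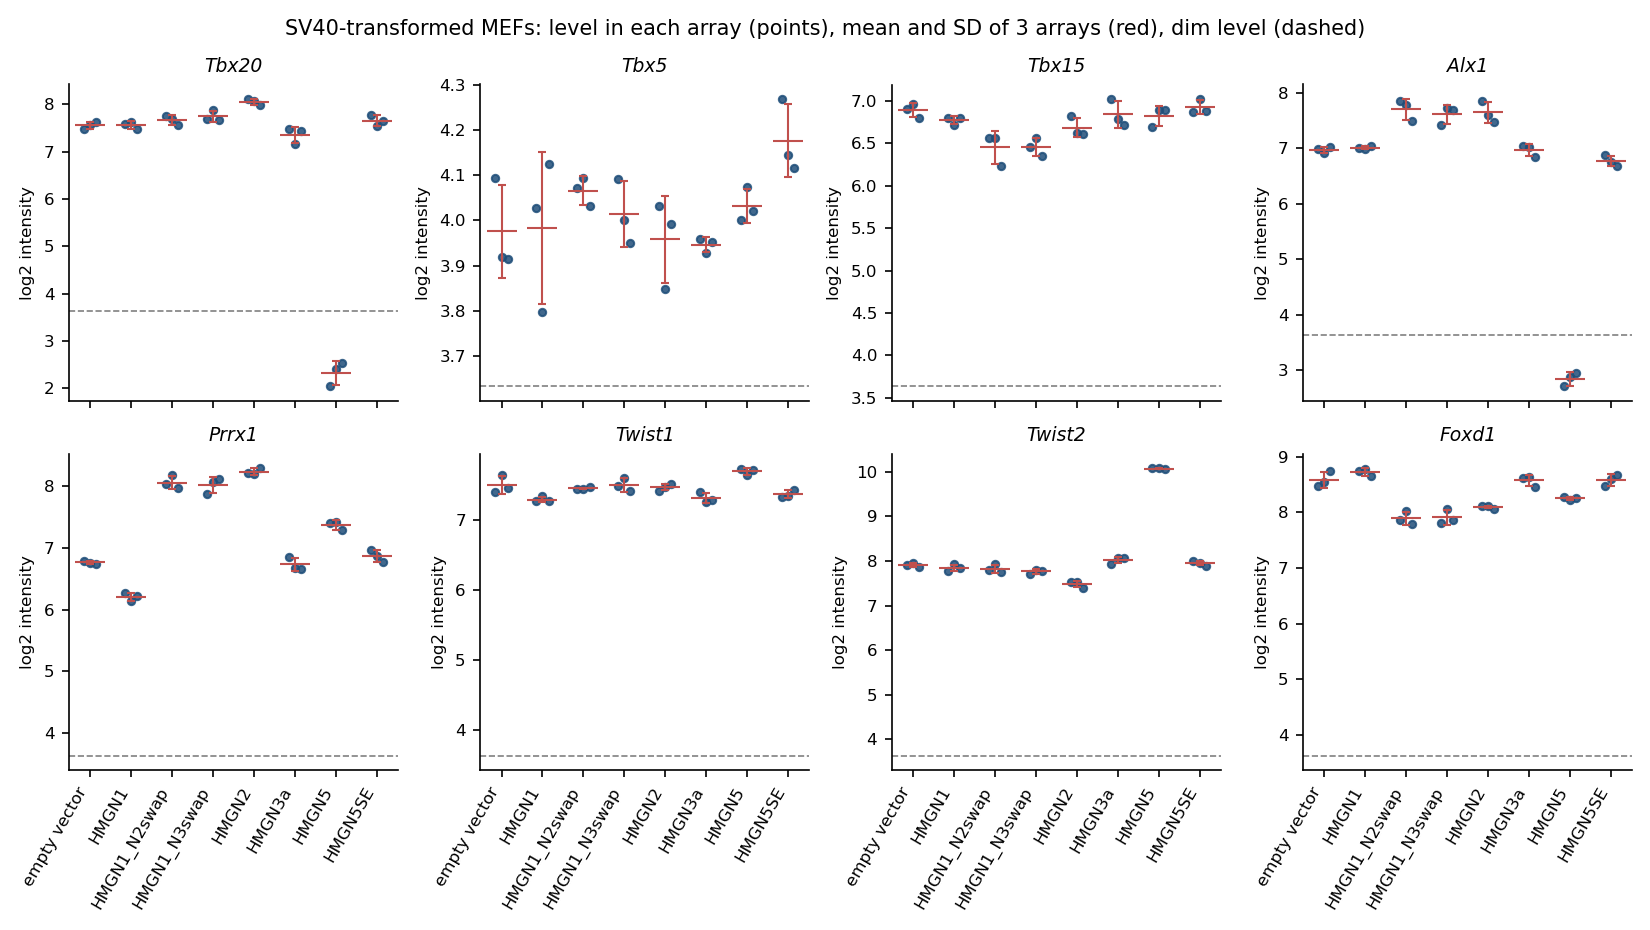
Log2 intensity (y axis) of the 8 detectable factors in each SV40 MEF array (points) by construct (x axis), with the mean and SD of 3 arrays in red and the dim level dashed. The HMGN5 arrays of Tbx20 (2.03 to 2.52) and Alx1 (2.70 to 2.94) lie below the dim level, and those of Twist2 (10.06 to 10.08) lie above all other arrays.

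Counted over the 8 factors tested in SV40 MEFs, 6 were called with HMGN5, where 41.5% of all 13461 genes tested were called. With HMGN2 it was 5 (44.4% of all genes), with each swap construct 4 (37.1% for HMGN1_N2swap and 37.4% for HMGN1_N3swap) and with HMGN1 2 (29.4%). With HMGN3a and with HMGN5SE none of the 8 was called by limma (0.0297% and 0.0149% of all genes). An unadjusted p below 0.05 was found for 1 of the 8 in each, and for 1468 and 704 of all 13461 genes. These 7 contrasts share the 3 vector arrays, and they took part in choosing the genes, so nothing is read from the counts.

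The direct contrasts bypass the vector arrays. HMGN5SE differed from HMGN5 in 6 of 8 factors (42% of all genes): besides Tbx20, Alx1 and Twist2, Prrx1 was 0.51 ± 0.08 lower (-0.51), Twist1 0.33 ± 0.07 lower (-0.33) and Foxd1 0.33 ± 0.08 higher. HMGN2 differed from HMGN1 in 6 of 8 (41.1%), led by Prrx1 at +2.03 ± 0.08, with Alx1 (+0.64), Tbx20 (+0.49) and Twist1 (+0.18) higher and Foxd1 (-0.63) and Twist2 (-0.36) lower. That Twist1 call was lost without HMGN1 replicate 1 or 3 or HMGN2 replicate 2 or 3 (0.16 to 0.17). HMGN1_N2swap differed from HMGN1 in 5 of 8 (46.1%), with Prrx1 at +1.85 ± 0.08 (1.76 with the Actb covariate), Alx1 at +0.69 ± 0.10 (0.36), Foxd1 at -0.83 ± 0.08 (-0.93) and Tbx15 at -0.32 ± 0.10 (-0.53), each still called. Its remaining call, Twist1 (+0.16 ± 0.07), was lost with the covariate (0.14) and without any 1 of the 6 arrays (0.15 to 0.18), and the Tbx15 call without HMGN1_N2swap replicate 3 (-0.21). HMGN1_N3swap differed from HMGN1 in 5 of 8 (50.9%), again with Prrx1 (+1.81), Alx1 (+0.60), Foxd1 (-0.81), Tbx15 (-0.32) and Twist1 (+0.21, lost without HMGN1_N3swap replicate 2 at 0.15). With the covariate these gave 1.72, 0.30, -0.90, -0.51 and 0.18, all but Twist1 still called, and Twist2 was called too (-0.20). HMGN1_N2swap and HMGN2 differed in 4 of 8 (50.2%): Twist2 was higher with HMGN1_N2swap (+0.34 ± 0.06) and Tbx20 (-0.38 ± 0.10), Tbx15 (-0.23 ± 0.10) and Foxd1 (-0.20 ± 0.08) were lower. The Foxd1 call was lost without any 1 HMGN2 array or HMGN1_N2swap replicate 1 or 3 (-0.16 to -0.22), and the Tbx15 call without any 1 HMGN2 array or HMGN1_N2swap replicate 3 (-0.12 to -0.27). With the covariate Tbx20 (-0.75) and Tbx15 (-0.56) stayed called, Twist2 (0.15) and Foxd1 (-0.35) did not, and Alx1 turned from +0.05 to -0.46 and was called.

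Cell type markers moved with the HMGN5 pool, and their part in the results was not tested. The summed intensity of the 12 fibroblast markers was 27540 to 28190 there and 22480 to 24450 with HMGN2, against 14900 to 15380 with the vector. The markers did not all move with the sum. With HMGN5, Col3a1 (+4.16), Col1a2 (+2.82), Col1a1 (+1.75), Fn1 (+1.75), Pdgfra (at least 1.22), Col5a1 (+0.58), Vim (+0.33) and S100a4 (+0.30) were called higher. Thy1 was called lower (at least 0.32), and Pdgfrb (+0.16) and Dcn (-0.02) were not called. With HMGN2, Dcn (-0.08), S100a4 (-0.15) and Pdgfra (+0.37) were not called. Of the 4 cardiac muscle markers Tnnt2 and Actc1 lay above the dim level and Nppa and Myh6 below it in every group. Their sum was 406 to 433 with HMGN5 against 92.9 to 99.2, through the troponin gene Tnnt2 (8.59 against 5.76), while Actc1 gave 4.63 against 4.75. Of the 7 epicardial markers Msln, Upk1b and Krt19 lay above the dim level and Wt1, Upk3b, Tcf21 and Aldh1a2 below it in every group. Their sum was 543 to 552 with HMGN5, 367 to 397 with the vector and 181 to 266 with HMGN2 and the swap constructs. The rise with HMGN5 came from Msln (+0.81 ± 0.11, called), while Krt19 fell (-0.84 ± 0.14, called) and Upk1b gave -0.03 ± 0.09, not called. The 5 neural markers summed to 395 to 425 with HMGN5 against 223 to 236. Sox2, below the dim level in every other group, was at least 2.54 higher (6.17 against 1.74) and Tubb3 rose by 1.37 ± 0.14, while Nes gave 0.04 ± 0.08, not called. The 9 macrophage markers summed to 170 to 218 in all SV40 groups. Xist, the RNA of the inactive X chromosome, moved with the pools in which Prrx1 was highest and Foxd1 lowest. Its brightest probe set averaged 6.30 with HMGN2, 7.32 with HMGN1_N2swap and 7.03 with HMGN1_N3swap, against 4.82 with the vector and 4.26 to 4.72 in the other 4 pools, and its part in these results was not tested.

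The wider set of mesenchymal and limb patterning factors held called genes in 5 of the 7 pools, and the share called of all genes is given beside each count. Of 80 other factors listed, 58 were tested in SV40 MEFs. With HMGN5, 17 rose and 17 fell (41.5% of all genes called, median difference 0.00 against -0.01 over all genes). Among the falls were Six2 (-3.11 ± 0.12), Dlx2 (-1.69 ± 0.16) and Lhx2 (at least 1.07 lower), and among the rises Bnc2 (+2.20 ± 0.19), Gata6 (at least 1.78), Meis2 (+1.32 ± 0.10), Mkx (+1.11 ± 0.13) and Mef2c (at least 0.97). Six2 is a homeobox factor of head and kidney mesenchyme, and Gata6 and Mef2c are heart and mesoderm factors. With HMGN2, 25 rose and 14 fell (44.4% of all genes, median 0.15 against -0.06). Upwards went Bnc2 (+2.06 ± 0.19), Osr2 (at least 1.36) and Foxf1 (+1.30 ± 0.08), and downwards Dlx2 (-1.51 ± 0.16), Dlx1 (-0.67 ± 0.08) and Tbx2 (at least 0.27). Isl1 was called too (-0.52 ± 0.12), but its means, 3.08 with HMGN2 and 3.59 with the vector, both lay below the dim level. HMGN1_N2swap gave 13 up and 12 down (37.1%) and HMGN1_N3swap 12 up and 12 down (37.4%; medians 0.01 and 0.03), each with rises of Bnc2 (+1.90 and +1.70), Osr1 (+1.42 and +1.46) and Eya1 (+0.98 and +0.89). With the Actb covariate each gave 9 up and 11 down, 14 of these factors being called both ways, and Bnc2 (1.36 and 1.21), Osr1 (1.82 and 1.82) and Eya1 (0.67 and 0.61) stayed called. HMGN1 gave 5 up and 10 down (29.4%, median -0.05), with Foxf1 up by 1.21 ± 0.08 and Dlx2 down (-0.98 ± 0.16). With HMGN3a and HMGN5SE limma called none of the 58, and 4 in each had an unadjusted p below 0.05, as had 1468 and 704 of all 13461 genes. HMGN5SE differed from HMGN5 in 37 of the 58 (42% of all genes), with Six2 3.22 ± 0.12 higher.

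**Figure D3:**
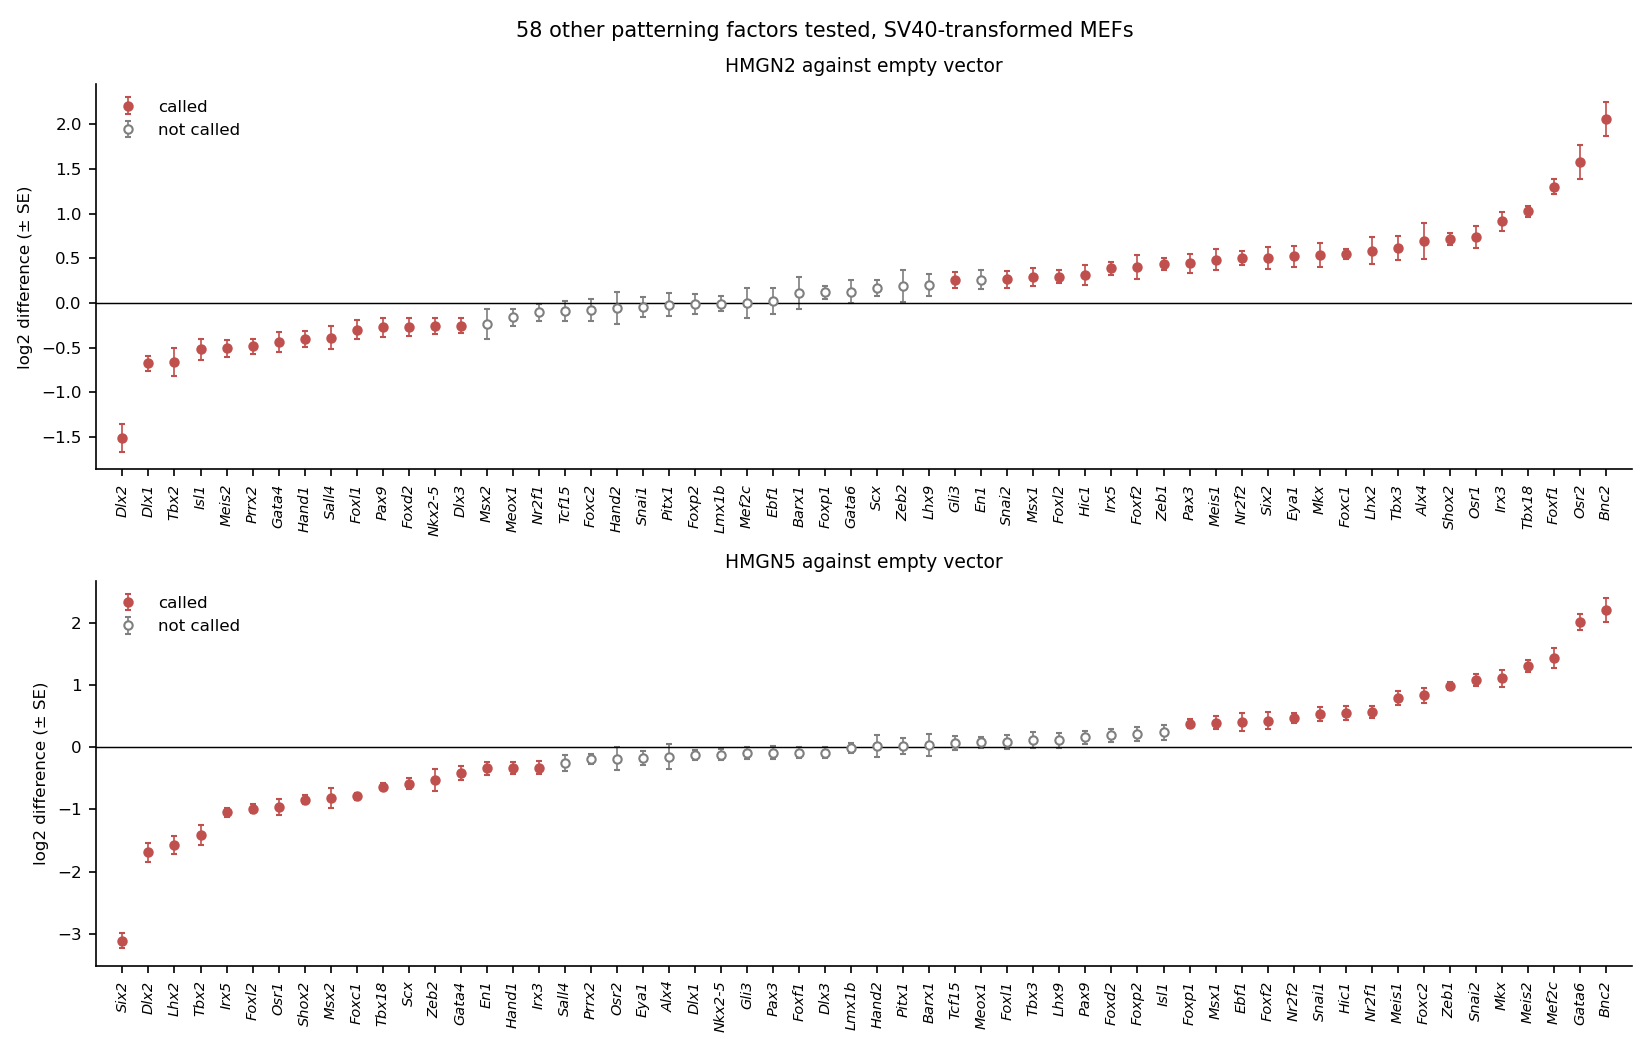
Log2 difference from the empty vector (y axis, with SE) of 58 other patterning factors in the HMGN2 and HMGN5 pools of SV40 MEFs, sorted by size (x axis), filled where called. Both panels share the vector arrays, Six2 is lowest with HMGN5 (-3.11) and Bnc2 highest in each (2.06 and 2.20), and fitted values of genes below the dim level in a group, such as Gata6, overstate what was measured.

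Partners and antagonists of the Twist proteins, a list of 7 genes, were called in 6 cases with HMGN2 and in 5 with HMGN5, where 44.4% and 41.5% of all genes were. Twist proteins pair with the E proteins of Tcf3, Tcf4 and Tcf12, and the Id proteins take up E proteins without binding DNA. With HMGN2 all 4 Id genes were called lower, Id1 (-2.34 ± 0.10) and Id2 (-2.70 ± 0.12) most, then Id3 (-1.57 ± 0.09) and Id4 (-1.57 ± 0.14), while Tcf4 (+1.19 ± 0.12) and Tcf12 (+0.20 ± 0.08) rose. With HMGN5, Id1, Id2 and Id3 rose (+0.74, +0.59 and +0.44) and Tcf4 and Tcf3 fell (-0.68 and -0.46). With HMGN1, Id4, Id1 and Id2 fell (-0.92, -0.51 and -0.42), and with each swap construct Id1 (-0.75 and -0.69) and Tcf3 (-0.57 and -0.65). With the Actb covariate Id1 stayed called (-0.55 and -0.51), Tcf3 did not (0.12 and -0.02), and Id2 was called lower with HMGN1_N2swap (-0.52). HMGN1_N2swap and HMGN2 differed in all 7 (50.2% of all genes), the 4 Id genes being 1.45 to 2.47 higher with HMGN1_N2swap. With the covariate 6 of the 7 were called, the Id genes at 1.53 to 2.04, and Tcf3 turned from -0.65 to 0.34, not called. None of the 7 was called with HMGN3a or HMGN5SE, where 2 and 0 had an unadjusted p below 0.05, as had 1468 and 704 of all 13461 genes.

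Of 15 genes that textbooks link to 1 of the 9 factors, 7 were tested in SV40 MEFs. Tnc, the matrix protein tenascin C and a known target of Prrx1, rose with HMGN2 (+1.99 ± 0.07), HMGN5 (+1.76 ± 0.07) and the swap constructs (+0.67 and +0.77), and fell with HMGN1 (-0.45 ± 0.07). Snai2, a repressor downstream of Twist, rose with HMGN5 (+1.09 ± 0.10), the swap constructs (+0.52 and +0.38) and HMGN2 (+0.27), and fell with HMGN1 (-0.74). With the Actb covariate Tnc stayed called in the swap pools (0.61 and 0.72), and Snai2 did not (0.16 and 0.05). Postn, the matrix protein periostin, rose by at least 1.28 with HMGN2 and by at least 1.99 with HMGN5. These contrasts share the vector arrays with those of the 9 factors, so directions that match are not independent. In all, 5 of 7 were called with HMGN2 (44.4% of all genes), 4 with HMGN5 (41.5%), 3 with HMGN1 (29.4%) and 2 with each swap construct (37.1% and 37.4%). With HMGN3a or HMGN5SE 0 were called, and 0 and 1 had an unadjusted p below 0.05, as had 1468 and 704 of all 13461 genes.

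The genes most like each factor over the 24 SV40 arrays were found by Pearson's r of log2 values, as a description in which the arrays of a pool count separately. For Tbx20 they were Casd1 (0.99), Six2 (0.99) and Ctsc (0.99), and for Alx1 they were Tmem98 (0.99), Tbx20 (0.98) and Ctsc (0.98). Over the 21 arrays outside the HMGN5 pool, chosen after seeing the data, Casd1 gave -0.07 with Tbx20, Six2 0.74, and Alx1 0.62, so these values rest in large part on the HMGN5 arrays. The same held for Twist2, whose closest genes Fhdc1, Pcdh7 and Cd24a gave 0.98 to 0.99 over all arrays and 0.53 to 0.85 without that pool, and whose r with Tbx20 went from -0.99 to -0.80. Prrx1 was otherwise: Gpr176, S1pr3 and Lrig1 gave 0.96 to 0.98 with and 0.97 to 0.98 without the HMGN5 pool, and its r with Foxd1 was -0.92 both ways. Foxd1 was most like Mzt1, Cul5 and Rspry1 (0.95 to 0.97), Tbx15 most like Gfpt1, Emc9 and Ndel1 (0.88 to 0.89), Twist1 most like Nrp1, Efnb2 and Inhba (0.82 to 0.84, and 0.63 to 0.67 without the HMGN5 pool) and Tbx5 most like Bcan, C130073F10Rik and Krt78 (0.64 to 0.72).

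In primary MEFs none of the 8 factors tested was called in a knock out. Limma called 0.439% of all 13669 genes for HMGN1, 0.585% for HMGN3 and 0.0732% for the arrays labelled HMGN5 knock out. In the same order, 1, 3 and 2 of the 8 factors had an unadjusted p below 0.05, as had 2121, 1159 and 764 of all genes. Zic1, a zinc finger gene of dorsal mesenchyme, gave non-overlapping groups in all 3, though none was called. How many of all genes separate in this way was not counted, and the second Zic1 probe set lay below the dim level in every primary group. The level at the brightest probe set was 3.58, 3.78 and 3.84 in HMGN1 WT and 4.18, 4.61 and 4.77 in HMGN1 knock out cells (+0.79 ± 0.27). It was 2.51, 2.67 and 2.85 in HMGN3 WT and 3.29, 3.33 and 3.93 in HMGN3 knock out cells (+0.84 ± 0.27). In HMGN5 WT it was 2.95, 3.45 and 3.89, and in the arrays labelled HMGN5 knock out 1.80, 2.70 and 2.84 (-0.99 ± 0.27). The HMGN3 effect exceeded the HMGN5 effect by 1.83 ± 0.38 on Zic1 (called, 1 of 8 factors, 0.424% of all genes). That call was lost without any 1 of the 6 HMGN3 arrays, HMGN5 knock out replicate 3 or HMGN5 WT replicate 2 or 3 (1.60 to 1.95). The HMGN1 effect exceeded the HMGN5 effect by 1.77 ± 0.38 (not called, 0 of 8 factors, 0.161% of all genes). These differences reuse the arrays that took part in the choice of the genes. The share of Y-linked signal, on a scale from 0 to 1, ran from 0.68 to 0.87 over the HMGN3 arrays and from 0.01 to 0.90 over the HMGN5 arrays, and with it as a covariate the first difference was 1.98, still called. Zic1 lies on chromosome 9, as Hmgn3 does, with 42 protein-coding genes between them in the RefSeq order, and Tbx20, also on that chromosome, is 592 genes away.

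Foxd1 was the other factor with a wide gap. It read 2.74, 3.10 and 3.30 in HMGN3 WT and 3.90, 4.04 and 4.08 in HMGN3 knock out cells (+0.96 ± 0.24), not called with all 18 arrays and called when these 6 alone were fitted. Alx1 read 2.85, 3.57 and 3.92 in HMGN5 WT and 2.53, 2.79 and 2.84 in the arrays labelled HMGN5 knock out (-0.73 ± 0.23, not called, no overlap). The other differences of the 8 factors in the 3 knock outs lay between -0.34 (Alx1, HMGN1) and 0.18 (Tbx15, HMGN5). Prrx1, Twist1 and Twist2, the pan-mesenchymal factors, lay between -0.17 and 0.14. Of the 80 other patterning factors 63 were tested, and limma called none in the 3 knock outs, where 7, 17 and 9 had an unadjusted p below 0.05. Beside these counts and those of the lists that follow, 2121, 1159 and 764 of all 13669 genes had such a p. Of the 7 Twist partners and antagonists none was called either (0, 0 and 1 at an unadjusted p below 0.05), nor of the 9 tested genes with a textbook link (1, 3 and 0).

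**Figure D4:**
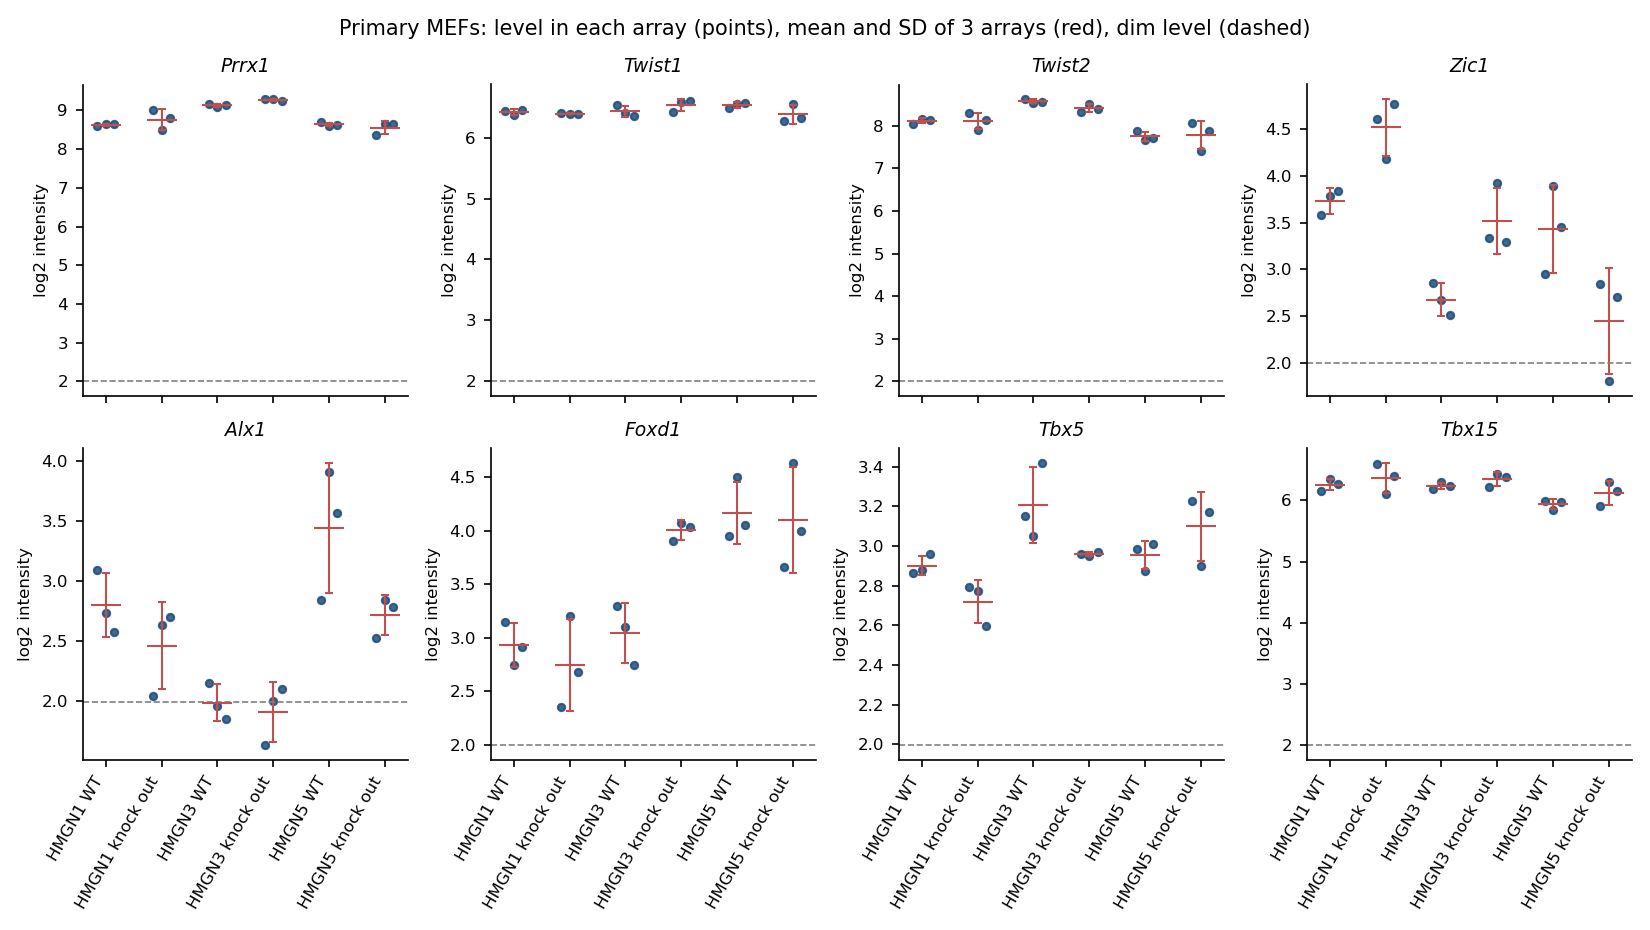
Log2 intensity (y axis) of the 8 detectable factors in each primary MEF array (points) by group (x axis), with the mean and SD of 3 arrays in red and the dim level dashed. For Zic1 the knock out arrays lie above their WT for HMGN1 and HMGN3 and below it for HMGN5, and for Prrx1 the HMGN3 arrays (9.09 to 9.30) lie above all others.

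The WT groups, which the labels pair with separate knock outs, also differed from one another. HMGN3 WT and HMGN1 WT differed in 5 of 8 factors (31.5% of all genes called): in HMGN3 WT, Zic1 (-1.06 ± 0.27) and Alx1 (at least 0.81) were lower, and Prrx1 (+0.50 ± 0.10), Twist2 (+0.46 ± 0.13) and Tbx5 (+0.31 ± 0.09) higher. HMGN5 WT and HMGN1 WT differed in 1 (11.7%), Foxd1, which read 3.95, 4.06 and 4.50 against 2.74, 2.92 and 3.15 (+1.23 ± 0.24). HMGN5 WT and HMGN3 WT differed in 4 (17.2%): Alx1 (at least 1.45) and Foxd1 (+1.12 ± 0.24) were higher in HMGN5 WT, and Twist2 (-0.83 ± 0.13) and Prrx1 (-0.49 ± 0.10) lower. Prrx1 itself read 8.60, 8.65 and 8.65 in HMGN1 WT, 9.09, 9.15 and 9.17 in HMGN3 WT and 8.61, 8.62 and 8.69 in HMGN5 WT. The Alx1 call of the first of these contrasts was lost without HMGN1 WT replicate 1 (-0.67) or HMGN3 WT replicate 3 (-0.75), and the Tbx5 call without HMGN1 WT replicate 1 or 2 or HMGN3 WT replicate 3 (0.20 to 0.30).

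Y-linked signal and a marker list moved with the WT groups. The share of Y-linked signal was 0.003 to 0.008 in HMGN1 WT, 0.727 to 0.875 in HMGN3 WT and 0.858 to 0.895 in HMGN5 WT, on a scale that runs from 0 at the lowest to 1 at the highest array of each Y-linked gene. With that share as a covariate, HMGN3 WT against HMGN1 WT had calls for Twist2 (+0.64), Tbx5 (+0.50) and Tbx15 (-0.43), while Zic1 (-0.71), Prrx1 (+0.13) and Alx1 (-0.76) were no longer called. HMGN5 WT against HMGN1 WT then had calls for Tbx15 (-0.77) and Prrx1 (-0.40, against +0.01 without the covariate), and Foxd1 (+1.03) was no longer called. HMGN1 WT overlaps neither other WT group in this share, so share and WT group cannot be told apart here. The fitted slope comes from the spread within groups, widest in the HMGN1 knock out arrays (0.01 to 0.74) and those labelled HMGN5 knock out (0.01 to 0.88). The summed intensity of the 9 macrophage and leukocyte markers was 473 to 505 in HMGN1 WT, 1105 to 1199 in HMGN3 WT and 536 to 990 in HMGN5 WT, with Itgam below the dim level in each, and its part in the differences was not tested. Of the 63 other patterning factors 23, 14 and 25 were called in the 3 contrasts in the order above, where 31.5%, 11.7% and 17.2% of all genes were. The largest in each direction were Bnc1 (+2.23 ± 0.19) and Meox1 (-1.71 ± 0.25) for HMGN3 WT against HMGN1 WT, Foxp2 (+1.73 ± 0.23) and Shox2 (-0.82 ± 0.13) for HMGN5 WT against HMGN1 WT, and Foxp2 (+1.37 ± 0.23) and Bnc1 (-2.10 ± 0.19) for HMGN5 WT against HMGN3 WT.

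Over the 18 primary arrays, Prrx1 was most like Adamts9 (r = 0.97), Rtn4rl1 and Ptger4, Twist2 most like Irx5 (0.97), Epb41l3 and Fam174b, Foxd1 most like Hey2, Bmp4 and Lama5, and Zic1 most like Rnf11, Col7a1 and Rras. Alx1 was most like Snapc3, Tex10 and Bmper, Twist1 most like Fzd8, Sspn and Tnmd, Tbx15 most like Kifap3, 1110019D14Rik and Postn, and Tbx5 most like Abcc3, 1810062G17Rik and Lpxn. None of these genes was among the closest 3 to the same factor in SV40 MEFs.

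In MIN6 cells, Twist2 and Tbx15 fell with HMGN3a. Twist2 read 6.73, 6.85 and 6.92 with the vector and 5.84, 6.21 and 6.24 with HMGN3a (-0.74 ± 0.11), with no overlap. Tbx15 read 6.43, 6.57 and 6.68 with the vector and 6.13, 6.26 and 6.28 with HMGN3a (-0.33 ± 0.07), also with no overlap. The second Tbx15 probe set lay below the dim level in every MIN6 group, with a highest mean of 5.13. Tbx5, at 5.07 to 5.14 with the vector and 5.18 to 5.32 with HMGN3a, lay at the dim level and was not called. The other 6 factors lay below it in every group, Prrx1 at most at 4.44 over its probe sets and Twist1 at most at 3.37. So 2 of the 3 factors tested were called, where 34.1% of all 13169 genes were. With HMGN1 none of the 3 was called (1.16% of all genes), and 0 had an unadjusted p below 0.05, against 2246 of all 13169 genes. Twist2 then read 6.83, 6.99 and 7.09. Among 38 other patterning factors tested with HMGN3a, 10 rose and 8 fell (34.1% of all genes called), with falls of Foxf2 (at least 1.70), Shox2 (-1.71 ± 0.12) and Mef2c (at least 0.98). Among these factors HMGN1 gave calls for Foxc1 (+0.56 ± 0.08), Six2 (+0.32 ± 0.06) and Eya1 (-0.47 ± 0.07), where 1.16% of all genes were called. With HMGN3a the same genes gave +0.58 ± 0.08, +0.29 ± 0.06 and +0.42 ± 0.07, all called. The fibroblast markers summed to 485 to 535 with HMGN3a and 472 to 484 with the vector. Of those above the dim level, Fn1 (-0.39 ± 0.10) and Dcn (-0.35 ± 0.09) were called lower, against the direction of the sum. S100a4 (+0.32 ± 0.12) and Col5a1 (+0.11 ± 0.07) were not called. In SV40 MEFs, HMGN3a gave differences of +0.12 ± 0.06 for Twist2 and -0.05 ± 0.10 for Tbx15, neither called, and whether the effect differs between the cell types was not tested.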

How the data were processed

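RNA was labelled as biotinylated cRNA and hybridised to Affymetrix Mouse Genome 430 2.0 arrays, and RMA was used, per the submitters' processing notes (version not given in the sources used here). The values deposited by the authors are linear intensities, whose median per array was 5.47 to 5.93 (primary), 18.7 to 19.6 (SV40) and 55.5 to 57.6 (MIN6), so the 3 cell types were analysed apart. RMA smooths differences of dim probe sets, and the number of arrays limits the precision.

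From these, log2 was taken without a pseudocount, probe sets with 1 gene symbol (34945) were kept, those whose highest group mean lay under the 40th percentile were left out, and the brightest probe set stood for a gene. One mean per group was fitted over all arrays of a cell type (limma 3.58.1, R 4.3.3), two-sided, with Benjamini-Hochberg adjustment over 13669, 13461 and 13169 genes. The script was tested on simulated data. Bounds set the dim group at the dim level. The members, lists and rules were chosen with earlier results of these data known. Named were the members and, per factor, the 3 genes of highest Pearson's r. The genes named from the lists are examples, not picked by 1 rule, and larger called differences may go unnamed. Replicate numbers did not pair the samples. Alternatives were no filter, every probe set, quantile normalization, the compared groups alone, a replicate block, each array left out, and the Actb or Y-linked covariate.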

Additional observations from a re-analysis of the deposited data

Results flagged for a closer look

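Zic1 was the one factor for which 2 knock out effects were called different. The HMGN3 effect minus the HMGN5 effect was 1.83 ± 0.38 (log2, limma, adjusted p = 0.0487 over all genes, 3 arrays in each of 4 groups). All 3 HMGN3 knock out arrays lay above their WT and all 3 arrays labelled HMGN5 knock out lay below theirs. Over the alternatives run, the adjusted p ranged from 0.0173 to 0.149, and the call was lost without 9 of the 12 single arrays, with values of 1.60 to 1.95. Hmgn5 itself was higher, not lower, in the arrays labelled HMGN5 knock out, and the second Zic1 probe set lay below the dim level in every primary group.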

How the results depend on the processing

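Levels below the dim level are bounds, and dim factors (Tbx5, and Alx1, Zic1 and Foxd1 in primary MEFs) are the least precise. Under another setting, 257 counts of called factors stayed within 1.5 times of the reported count and 35 did not, for which the cause was not tested. With the compared groups alone in the fit, 1 factor was called in the HMGN3 knock out (reported 0), 3 in HMGN5 WT against HMGN1 WT (reported 1), 1 with HMGN1 against the vector in SV40 MEFs (reported 2) and 2 in HMGN1_N2swap against HMGN2 (reported 4). HMGN1_N2swap against HMGN2 also gave 2 with no filter and 2 after quantile normalization. The Y-linked covariate gave 3 in HMGN3 WT against HMGN1 WT (reported 5) and 2 in HMGN5 WT against HMGN1 WT, as did every probe set fitted on its own in the latter (2). The difference between the HMGN3 and HMGN5 knock out effects had 0 calls (reported 1) with no filter, with every probe set, with the compared groups alone and with the replicate number as a block. The replicate block, with numbers that do not pair the samples, moved no other count by over 1.5 times.

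Leaving out 1 array gave 3 to 4 calls in HMGN1_N2swap against HMGN1, 2 to 5 in HMGN1_N2swap against HMGN2, 1 to 2 with HMGN1 against the vector in SV40 MEFs, 3 to 5 in HMGN3 WT against HMGN1 WT and 1 to 2 in HMGN5 WT against HMGN1 WT. It gave 0 to 1 in the HMGN3 minus HMGN5 and the HMGN1 minus HMGN5 knock out effects.

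The sign turned for Prrx1 in HMGN5 WT against HMGN1 WT with the Y-linked covariate (-0.40), for Tbx20 in HMGN1_N3swap against the vector at its other probe set (-0.44), and for Alx1 in HMGN1_N2swap against HMGN2 with the Actb covariate (-0.46). In fits chosen after seeing the data, it turned for Prrx1 probe set 1425527_at in HMGN1_N2swap against HMGN2 with the Actb covariate (0.0359), and without the HMGN5 pool r of Tbx20 was 0.62 with Alx1 and -0.80 with Twist2.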
